A study of Mus musculus with 6 samples.

Results

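The Notch genes described here were 10 members fixed by name: the receptors Notch1, Notch2 and Notch3, the ligands Jag1, Jag2 and Dll1, and the target genes Hes1, Hey1, Hey2 and Heyl. All 10 had a row among the 54532 rows of the deposited expression table, and 4 of them, Notch1, Notch2, Jag1 and Hes1, were high enough to be tested. RNA was sequenced from the mouse calvarial pre-osteoblast line MC3T3-E1 after 12 hours, either with glucocorticoid (GC, 3 libraries) or under normal conditions (control, 3 libraries). The study calls the replicates biological. Its labels name no agent or dose for the GC group and list no genetic change in either group. As a model, this is a single cultured line. Values are FPKM, reads scaled to exon length and library depth, so levels can be set side by side between genes only where their reads were kept alike.

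Notch is a signalling route between touching cells. A Jagged or Delta ligand on one cell binds a Notch receptor on its neighbour, proteases cut the receptor, and the freed intracellular part joins the DNA-binding protein RBPJ in the nucleus to switch on HES and HEY genes, which encode basic helix-loop-helix repressors. In the bone lineage Notch is known for holding progenitors back from maturing, and inherited changes in NOTCH2 or JAG1 cause human disorders that affect the skeleton.

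HES proteins recruit co-repressors through a short motif at the end of the chain, and the coding bases near that end are shown for the 4 target genes because Hes1 was well detected here and the HEY genes were not. Each line gives 30 coding bases from GENCODE M21, with the 4 codons of a tryptophan or tyrosine, any residue, a proline and a tryptophan in capitals where they were found. Hes1 lies on chromosome 16, Hey1 on 3, Hey2 on 10 and Heyl on 4.
Hes1: gactccatgTGGAGACCGTGGcggaactga
Hey1: ggcaagcccTATAGACCTTGGgggacagag
Hey2: aataaacctTACCAACCCTGGgggacagaa
Heyl: tcagaaatcactgaaattggggctttctga
In Hes1 the motif opened with a tryptophan codon and stood 2 codons before the stop. In Hey1 and Hey2 it opened with a tyrosine codon and stood 7 codons before the stop. The search found no such motif in the last 30 codons of Heyl, whose final 30 bases are shown in lower case. These bases do not show whether the form with tyrosine recruits the same co-repressors as the form in Hes1.

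Promoter sequences from RefSeq, build GRCm38.p6, were matched for 7 of the 10 members, all but Hes1, Hey1 and Heyl. The 8 windows of these 7 members each ran from 250 bases before to 50 bases after a start site. A start site need not be the outer end of the gene: the window of Notch1, chr2:26503773-26504072, lay inside the span given below. The letters GTGGGAA, a form of the RBPJ site, were searched on both strands and occurred in 6.38% of all 32851 windows. Hey2, at chr10:30842734-30843033 on the minus strand, held 2 matches, with first bases at -207 and -4 from the start site. Its window is shown because it carries the RBPJ letters in capitals and yet no read of the gene was seen.
Hey2 promoter: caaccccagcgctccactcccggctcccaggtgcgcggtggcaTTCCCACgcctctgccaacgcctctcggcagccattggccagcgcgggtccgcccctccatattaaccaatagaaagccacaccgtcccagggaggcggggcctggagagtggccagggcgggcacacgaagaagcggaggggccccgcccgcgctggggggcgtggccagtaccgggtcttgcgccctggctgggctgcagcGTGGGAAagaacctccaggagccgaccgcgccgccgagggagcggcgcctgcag
The windows of Notch1, Notch2, Notch3, Jag1, Jag2 and Dll1 held no match to these letters. A form of the glucocorticoid receptor element, with the arms GNACA and TGTNC set 3 bases apart, had no match on either strand in the windows of these 7 genes and occurred in 0.475% of all windows.

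The libraries held between 13561753 and 15055609 reads that could be recovered as whole numbers from the FPKM, and the 11730 rows that reached 1 FPKM in 3 or more libraries were tested with limma-trend. The glucocorticoid-induced gene Tsc22d3 was at 162 ± 14.4 FPKM in GC and 28.4 ± 1.43 FPKM in control (SD, n = 3 each). Osteoblast markers were present for the most part: Col1a1 and Runx2 were at 1416 ± 226 and 10.8 ± 1.59 FPKM in GC and 1755 ± 47.8 and 10.3 ± 0.747 FPKM in control. Alpl, an enzyme among the osteoblast markers, was at 0 in every library except GC replicate 3. None of 6 tested osteoblast markers passed in the fit without the replicate number as a block. The summed level of the 8 osteoblast markers, most of it Col1a1 and Spp1, was 2812 to 2975 FPKM in GC and 3184 to 3379.7 FPKM in control. Ibsp, a bone matrix protein, was at 1.62 ± 0.382 FPKM in GC and 0.389 ± 0.297 FPKM in control, with a limma-trend adjusted p of 0.0684, or 0.0174 with the block. The summed level of 8 endothelial markers, cells that use Notch heavily, was 0.396 to 0.605 FPKM in GC and 0.249 to 0.374 FPKM in control, with Kdr at 0 throughout. For 7 smooth muscle and pericyte markers the sums were 43.7 to 64.6 FPKM in GC and 81.1 to 83.3 FPKM in control, nearly all of it from Pdgfrb and Cspg4. Cspg4 fell (limma-trend, adjusted p = 0.0404), while Pdgfrb had an adjusted p of 0.107, or 0.0348 with the block. The rest were too low to be tested: Tagln, Des, Rgs5 and Myh11 were higher in GC on average and Cnn1 lower. Tagln was at 0.500 ± 0.231 FPKM in GC and 0.126 ± 0.0935 FPKM in control. For 6 macrophage markers the sums were 22.8 to 32.8 FPKM in GC and 15.4 to 20.6 FPKM in control, with Adgre1 at 0 throughout. Lyz2, an enzyme abundant in macrophages, was at 17.4 ± 3.35 FPKM in GC and 8.64 ± 2.05 FPKM in control, with a limma-trend adjusted p of 0.0507, or 0.00304 with the block. For 5 chondrocyte markers the sums were 12.96 to 17.8 FPKM in GC and 20.3 to 21.7 FPKM in control, most of it Sox9. Col2a1 fell (limma-trend, adjusted p = 0.0146). Sox9 and Col10a1 were also lower in GC on average, while Acan and Comp were higher. Acan, Comp and Col10a1 were too low to be tested. For 6 adipocyte markers the sums were 0.0661 to 0.387 FPKM in GC and 0.0431 to 0.172 FPKM in control, with Plin1, Cfd and Lpl at 0. The part of these markers in the results below was not tested.

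In GC cells the RNA of the expressed receptors, of the expressed ligand and of Hes1 was lower on average, but none of the 4 tested members passed the test over all genes. Their log2 fold changes, differences of log2(FPKM + 1), a scale that understates the change of low genes, were all negative, with a median of -0.47, against a median of -0.01 over all tested rows. None was called at an adjusted p under 0.05, where 1.94% of all tested rows were called (0.853% lower and 1.08% higher). At an unadjusted p under 0.05 there were 3 of 4 (limma-trend), against 19.3% of all rows. In 3 of the 4 every GC library lay below every control library, which held for 14.8% of all tested rows, and none lay wholly above, which held for 10.8%. In a bulk sample, fewer cells expressing a gene and less RNA per cell cannot be told apart.

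**Figure D1:**
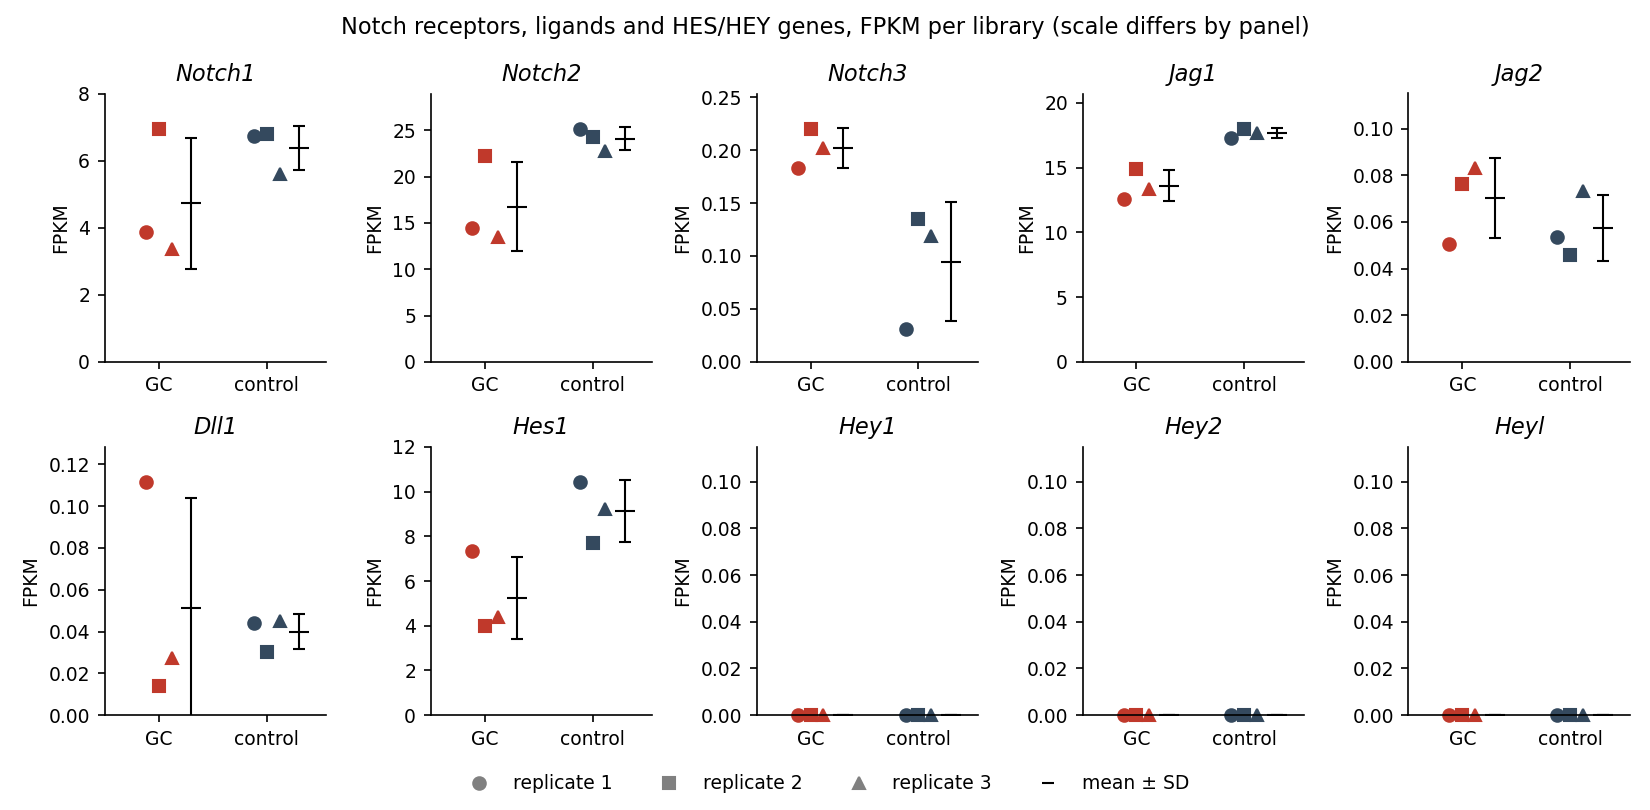
FPKM of each member in each library, GC left of control, with a marker shape for each replicate number and a bar for the mean ± SD (n = 3); the axis differs between panels, and the lower SD bar of Dll1 in GC is clipped at 0. The GC points of Jag1, Hes1 and Notch2 lie below their control points, GC replicate 2 of Notch1 and Notch2 lies at or close to the control values, and Hey1, Hey2 and Heyl are at 0 in all 6 libraries.

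Notch2 was the most abundant receptor and the highest of all the members. It measured 14.5, 22.2 and 13.5 FPKM in GC replicates 1 to 3 and 25.2, 24.3 and 22.7 FPKM in control replicates 1 to 3. GC replicates 1 and 3 lay far below the controls, while GC replicate 2 came just under the lowest control. The log2 fold change was -0.53 ± 0.18 (SE), with an adjusted p of 0.167 by limma-trend and 0.0619 with the replicate number as a block.

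Notch1, a second receptor made in many tissues, measured 3.86, 6.96 and 3.37 FPKM in GC and 6.73, 6.78 and 5.61 FPKM in control. Here the groups overlapped, because GC replicate 2 was the highest of the 6 libraries. The log2 fold change of Notch1 was -0.41 ± 0.22 (SE), with a limma-trend adjusted p of 0.359 and a 95% interval that reached from -0.92 to 0.10. Without GC replicate 2 the adjusted p was 0.0250 for Notch1 and 0.0140 for Notch2, at log2 fold changes of -0.67 and -0.74, in a setting that called 6.50% of all rows lower. None of the other settings run called Notch1 or Notch2. Without GC replicate 3 the change of Notch1 was -0.24.

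The proportions among the receptors stayed within a narrow range, whatever their sum in a library. The FPKM of Notch1, Notch2, Notch3 and Notch4 together came to 18.9, 29.8 and 17.4 in GC and 32.5, 31.8 and 28.9 in control. Notch2 made up 76.8%, 74.5% and 77.6% of it in GC and 77.6%, 76.5% and 78.6% in control. The ratio of Notch2 to Notch1 FPKM was 3.75, 3.20 and 4.005 in GC and 3.74, 3.58 and 4.05 in control.

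Notch3, the receptor best known from smooth muscle of vessel walls, was scarce and was not tested across genes. It measured 0.183, 0.220 and 0.202 FPKM in GC and 0.0309, 0.135 and 0.119 FPKM in control, which stood for 25, 30 and 28 reads in GC and 4, 17 and 15 reads in control. Every GC library lay above every control library. The ratio of depth-scaled read totals was 2.14, with an exact 95% interval of 1.43 to 3.26 that covers counting error only. An exact two-sided permutation test over the libraries gave p = 0.1 for Notch3, the smallest that 3 against 3 allows and 1 of 3 such tests (Jag2 p = 0.3, Dll1 p = 1). The row failed the filter on low values, and in a limma-trend fit without that filter its adjusted p was 0.609.

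Jag1, a ligand with a membrane anchor, was the only ligand with appreciable RNA. It measured 12.6, 14.9 and 13.3 FPKM in GC and 17.3, 18.0 and 17.7 FPKM in control. The groups were well apart and the controls close together, so that a mean of 13.6 ± 1.19 FPKM in GC stood against 17.7 ± 0.374 FPKM in control (SD, n = 3 each). The log2 fold change was -0.36 ± 0.10 (SE). By limma-trend the adjusted p was 0.115, while with the replicate block it was 0.0438 and without GC replicate 2 it was 0.0330. Jag1 did not pass with any other library left out (limma-trend, adjusted p 0.188 to 0.409) or by limma-voom (adjusted p = 0.110).

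The other ligands were near the floor of detection. Jag2, a second Jagged ligand, gave 6, 9 and 10 reads in GC and 6, 5 and 8 reads in control, with overlapping groups. Dll1, a Delta ligand, gave 8, 1 and 2 reads in GC and 3, 2 and 3 reads in control, so that a single GC library held most of its reads. Their read-total ratios had exact 95% counting intervals of 0.646 to 2.35 and 0.468 to 3.66. Jag1 made up between 97.8% and 98.8% of the summed FPKM of Jag1, Jag2, Dll1, Dll3 and Dll4 in GC and between 99.0% and 99.6% in control.

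Hes1, the classical direct target and itself a repressor, had the largest fold change of the tested members. It measured 7.34, 4.002 and 4.38 FPKM in GC and 10.4, 7.69 and 9.24 FPKM in control, from 254, 138 and 154 reads in GC and 342, 246 and 296 reads in control. The highest GC library, replicate 1, lay just under the lowest control library, replicate 2. Within a replicate number, the ratio of GC to control FPKM was 0.703, 0.520 and 0.474. The log2 fold change of Hes1 was -0.73 ± 0.20 (SE, 95% interval -1.20 to -0.25), with an adjusted p of 0.121 by limma-trend.

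With the replicate number as a block, Hes1 passed (limma-trend, adjusted p = 0.0157). Jag1 was the other member called by that fit, 2 of 4 tested, both lower, where the same fit called 5.0% of all rows lower and 3.96% higher. For Hes1 both replicate 1 libraries were the highest of their groups. Hes1 also passed without GC replicate 1, at a log2 fold change of -0.96 and a limma-trend adjusted p of 0.0415. That setting called 0.426% of all rows lower. Hes1 did not pass with any other library left out (limma-trend, adjusted p 0.134 to 0.358) or by limma-voom (adjusted p = 0.0775).

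The shapes across libraries differed between Hes1 and the receptors. In GC replicate 2, Notch1 was above and Notch2 just under the controls, whereas Hes1 was at its lowest of all 6 libraries and Jag1 was below every control. In GC replicate 1 the receptors were low and Hes1 was at its highest within GC. By level per length, Notch2 was above Jag1 within each of the 6 libraries, though the range of Notch2 over the GC libraries overlapped that of Jag1 and over the control libraries it did not. Hes1 and Notch1 overlapped in GC too, and in control every Hes1 value lay above every Notch1 value.

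Hey1, Hey2 and Heyl, the HEY repressors that act beside HES1 in vessels, heart and bone, were listed at 0 in all 6 libraries. A count of 0 allows up to 3 reads per library, or at most 0.0585 FPKM for Hey1, 0.0416 FPKM for Hey2 and 0.0374 FPKM for Heyl in the library with the least depth. None of 12 genes used by every cell was at 0 in any library. Gapdh and Tbp among them lay under the median of 8.16 FPKM over tested rows, and the rest above it. Gapdh averaged 4.98 ± 0.286 FPKM in GC and 6.18 ± 0.779 FPKM in control. Actb, also among them, averaged 1132 ± 200 FPKM in GC and 1015 ± 68.6 FPKM in control. Why Gapdh lay so far under Actb was not tested, and the check does not show that reads of every gene were kept. No stretch of 50 bases in the transcripts of Hey1, Hey2 and Heyl occurred in a transcript of another gene, and the same held for Hes1, Jag1 and Jag2. No fold change could be given for the 3 HEY genes.

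Read assignment was less certain for the other members. Exons of Notch1 (ENSMUSG00000026923.15, minus strand of chromosome 2, 26457903 to 26516663) shared 9.76% of their bases with 0610009E02Rik and Gm13568 on the opposite strand, and those of Notch2 (ENSMUSG00000027878.11, plus strand of chromosome 3, 98013527 to 98150361) shared 5.02% with Gm42820. For Notch3 (chromosome 17, 32120820 to 32166852) the share was 6.03%, with Gm17276 on the opposite strand, and for Dll1 (chromosome 17, 15367354 to 15376872) it was 20.5%, with A930024N18Rik on the opposite strand. Jag1 (ENSMUSG00000027276.7, minus strand of chromosome 2, 137081456 to 137116644), Jag2 (minus strand of chromosome 12, 112907819 to 112929776) and Hes1 (ENSMUSG00000022528.8, plus strand of chromosome 16, 30064384 to 30067796) overlapped no exon of another gene. These positions are GENCODE M21 on mm10, and the values sum all exons of a gene, untranslated ones included.

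The libraries also differed by exon length, and the receptors have long exons. The exons of Notch1 and Notch2 add up to 14232 and 10782 bases, longer than 97.2% and 92.8% of tested rows, while Jag1 has 5827 bases and Hes1 has 2037. In the fifth of tested rows with the longest exons the median deviation from the mean of the 6 libraries, on the log2 scale, was -0.20, 0.09 and -0.09 in GC replicates 1 to 3 and 0.04, 0.11 and 0.08 in control replicates 1 to 3. In the fifth with the shortest exons it was 0.20, -0.15 and 0.12 in GC and -0.02, -0.08 and -0.02 in control.

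With a smooth trend on exon length taken out of each library, a setting added after the data were seen, the log2 fold change was -0.22 for Notch1, -0.39 for Notch2, -0.29 for Jag1 and -0.83 for Hes1. All 4 were still negative. Hes1 then passed (limma-trend, adjusted p = 0.0351) and Notch1, Notch2 and Jag1 did not, at adjusted p-values of 0.512, 0.154 and 0.0922, while the setting called 1.60% of all rows lower. With the trend removed and the replicate block added, Hes1 and Jag1 passed, at 0.00505 and 0.0383. By its construction the setting also takes out any difference between GC and control that follows exon length.

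**Figure D2:**
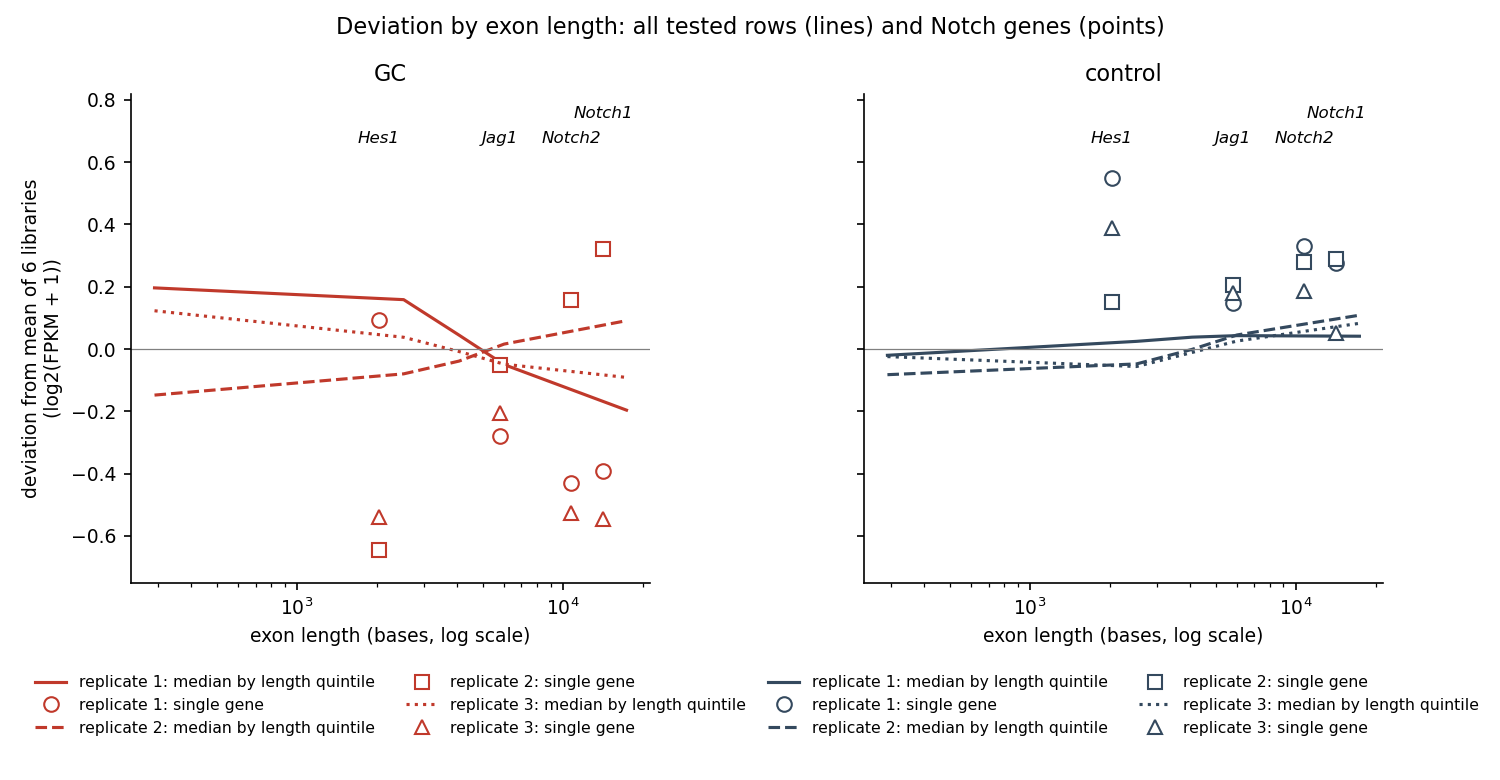
Deviation of log2(FPKM + 1) from the mean of the 6 libraries against exon length in bases on a log axis, GC on the left and control on the right; lines join the medians of all tested rows in 5 length classes, 1 line per library, and open points are Notch1, Notch2, Jag1 and Hes1. In GC replicate 2 the line ends at 0.09 for the longest exons and the points of Notch1 and Notch2 lie above 0, while in GC replicates 1 and 3 the lines end at -0.20 and -0.09 and those points lie below 0; Hes1 lies on the short side.

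The wider pathway was read from 67 other gene names in 7 lists by role, of which 66 had a row and 52 were tested. Rbpj, the DNA-binding protein through which Notch acts, fell, and none rose. Over all tested rows the same fit called 1.94% (0.853% lower and 1.08% higher), so 1 call among 52 was close to the background. Of the 52, 40 had negative and 12 positive fold changes, with a median of -0.10. Over all 11730 tested rows 6136 were negative and 5594 positive. In GC 12 of the 52 lay wholly lower and 5 wholly higher, against 14.8% and 10.8% of all tested rows. The length trend was not removed from these values, and its part in them was not tested. With the replicate block 3 fell and 2 rose, against 5.0% lower and 3.96% higher over all rows, so the blocked counts were close to the background.

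Rbpj measured 13.3, 15.4 and 14.3 FPKM in GC and 21.2, 22.0 and 19.7 FPKM in control. All GC libraries, replicate 2 among them, were below all controls. The log2 fold change was -0.52 ± 0.10 (SE), with an adjusted p of 0.0467 by limma-trend and 0.0167 with the block. The call was close to the threshold: the adjusted p was 0.0825 and 0.160 without GC replicates 1 and 3, 0.181, 0.240 and 0.146 without control replicates 1, 2 and 3, 0.160 without a filter and 0.0799 with the length trend removed. Of the 50-base stretches of Rbpj, whose exons span 12750 bases, 10.6% occurred in other genes, the pseudogene Rbpj-ps3 among them, so part of its reads is uncertain.

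Among the 13 nuclear complex and co-factor genes, all tested, 12 did not pass and 12 had negative fold changes, with a list median of -0.28. At an unadjusted p under 0.05 there were 5 of the 13 by limma-trend, against 19.3% of all tested rows, and 3 of the 13 lay wholly lower in GC, against 14.8%.

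Genes that process receptor and ligand gave no call in the test over all genes. None of 8 tested cleavage genes passed, with 4 fold changes of each sign. Aph1a, a subunit of gamma-secretase, averaged 41.1 ± 6.44 FPKM in GC and 42.0 ± 6.70 FPKM in control. Adam10, a protease that cuts the receptor, averaged 34.8 ± 5.15 FPKM in GC and 36.9 ± 2.65 FPKM in control. None of 5 tested glycosylation and maturation genes passed. Rfng and Lfng, Fringe enzymes that add sugars to Notch, averaged 17.4 ± 0.814 and 14.3 ± 2.30 FPKM in GC and 18.3 ± 1.32 and 16.4 ± 0.626 FPKM in control. Poglut1, which adds glucose to the receptor and was singled out by its values, averaged 17.1 ± 1.71 FPKM in GC and 12.7 ± 0.609 FPKM in control. Its limma-trend adjusted p was 0.106, or 0.0394 with the block and 0.0467 with the length trend removed.

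None of 15 tested genes of ligand endocytosis, ubiquitin transfer and inhibition passed, and 13 had negative fold changes. Epn1, an endocytic adaptor, averaged 42.2 ± 4.40 FPKM in GC and 54.8 ± 2.39 FPKM in control, with a limma-trend adjusted p of 0.142, or 0.0491 with the block and 0.0489 with the length trend removed. Dtx3, of the Deltex family of ubiquitin ligases, averaged 19.9 ± 2.10 FPKM in GC and 20.3 ± 2.60 FPKM in control. None of 7 tested genes listed as partners of HES and HEY passed. Aes and Hdac2 were at 169 ± 25.8 and 39.0 ± 5.19 FPKM in GC and at 171 ± 18.2 and 39.4 ± 1.85 FPKM in control.

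Some other Notch genes ran against the direction of Hes1 without passing. Dlk2, a Delta-like protein that lacks the domain for activating Notch, measured 8.78, 6.88 and 8.26 FPKM in GC and 5.53, 5.002 and 6.38 FPKM in control, with all GC libraries above all controls. The log2 fold change of Dlk2 was 0.43, with a limma-trend adjusted p of 0.127, or 0.0357 with the block. None of 3 tested genes among other HES genes and targets passed. Hes6, the only HES gene tested besides Hes1 and singled out by its values, was higher in GC. It averaged 8.99 ± 1.22 FPKM in GC and 6.68 ± 0.611 FPKM in control, with all GC libraries above all controls. The log2 fold change of Hes6 was 0.38, with a limma-trend adjusted p of 0.165, or 0.0799 with the block. Myc averaged 19.2 ± 0.278 FPKM in GC and 16.4 ± 1.17 FPKM in control, and Ccnd1, which encodes cyclin D1, averaged 208 ± 30.6 FPKM in GC and 212 ± 20.7 FPKM in control. Nrarp, a feedback inhibitor that is a sensitive target in many cells, was listed at 0 in all 6 libraries, as were Hes2, Hes5 and Dlk1. Notch4, a receptor of vessel linings, failed the filter on low values. It measured 0.336, 0.432 and 0.331 FPKM in GC and 0.525, 0.553 and 0.458 FPKM in control. All its GC libraries were below all its controls, the direction of Hes1.

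**Figure D3:**
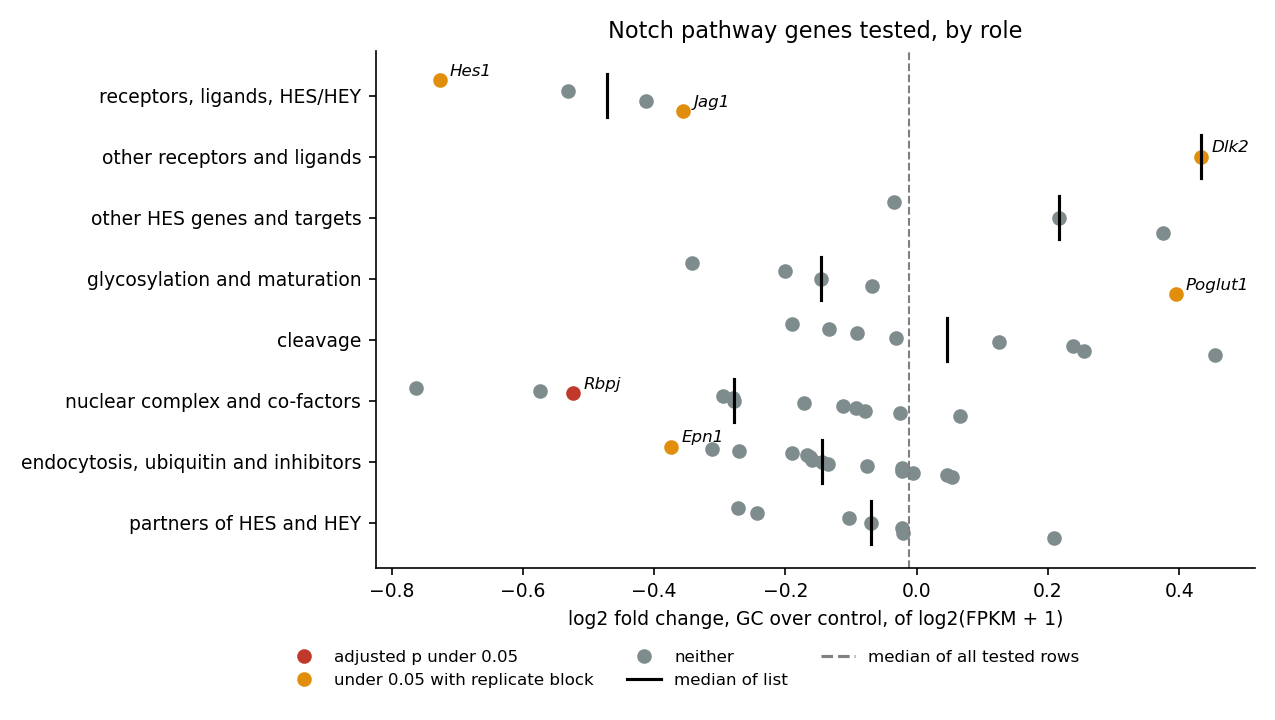
Log2 fold change, GC over control, of tested Notch pathway genes, a point each, in 8 rows by role, with a black bar at the median of each list and a dashed line at the median of all tested rows. Rbpj is the only point past an adjusted p of 0.05; Hes1, Jag1, Epn1, Dlk2 and Poglut1 pass with the replicate block, and the nuclear genes have a median of -0.28.

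**Figure D4:**
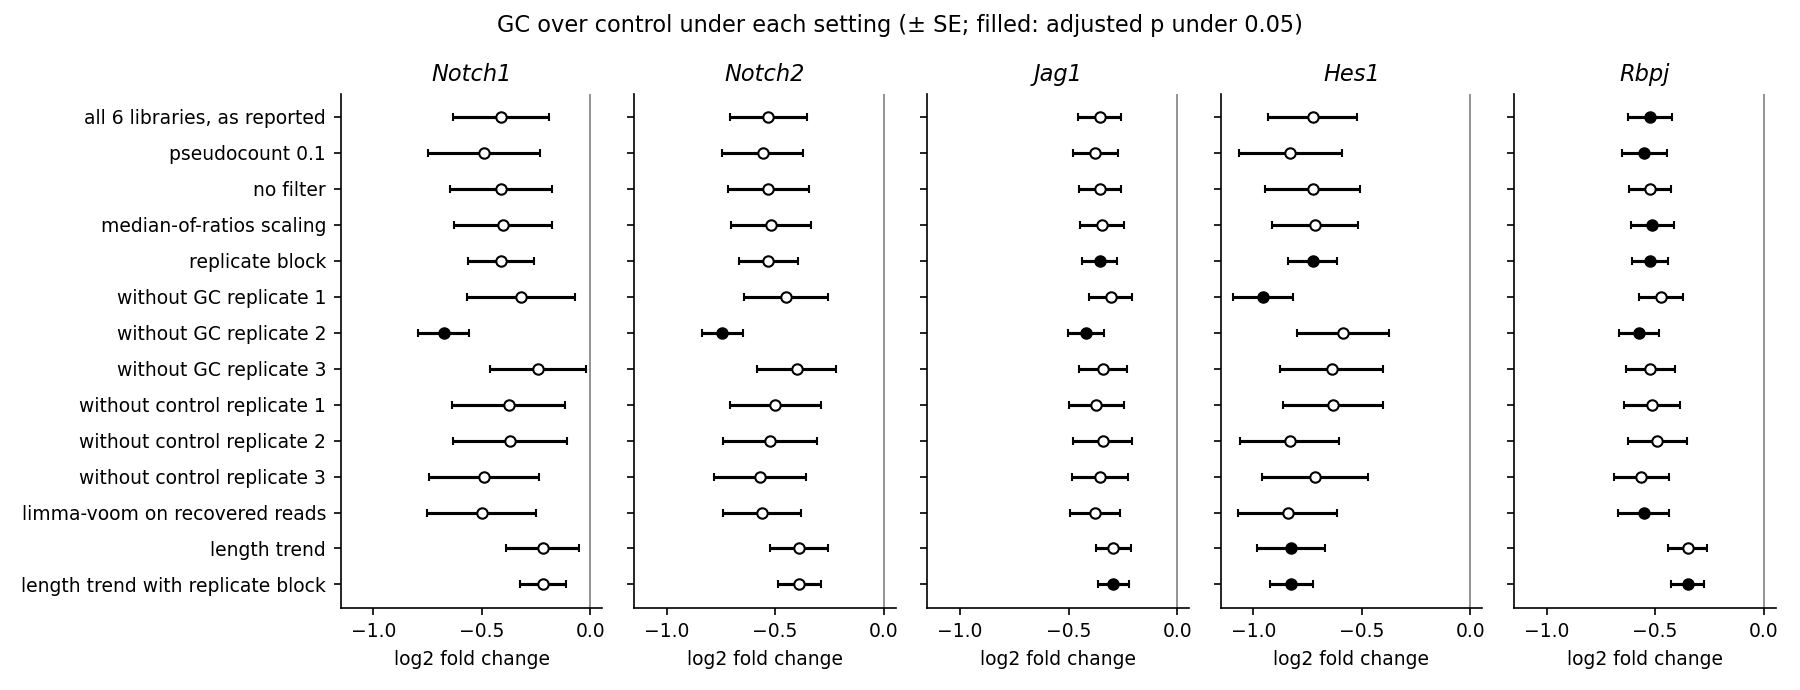
Log2 fold change of Notch1, Notch2, Jag1, Hes1 and Rbpj, GC over control, under the reported fit and 13 other settings, with bars of 1 SE and filled points where the adjusted p was under 0.05. All values lie below 0; Notch1 ranges from -0.67 to -0.22 and Hes1 from -0.96 to -0.59.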

How the data were processed

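TRIzol-extracted RNA was made into libraries with an NEBNext Ultra kit, per the labels' protocols. The deposited FPKM were made by the authors; the submitters' processing notes list HISAT2, HTSeq, DESeq2 and mm10, without versions, and neither annotation release nor strand setting is stated there. Multiplied by GENCODE M21 exon length and a depth factor, FPKM came out whole within 0.001 reads in all libraries for 96.7% of 26481 rows above 0 with a unique name. For Notch3 a length of 8044 bases gave whole reads. Of 203 rows that shared a name, those with the highest mean kept it. Groups and replicate numbers came from the titles.

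GC was compared with control by limma-trend (limma 3.58.1, R 4.3.3, trend and robust options) on log2(FPKM + 1), two-sided, with Benjamini-Hochberg adjustment over 11730 rows and a threshold of 0.05. The code was tested on simulated data. Alternatives were a pseudocount of 0.1, no filter, median-of-ratios scaling, limma-voom on recovered reads, a replicate block, each library left out, and, added after seeing the data, removal of a lowess trend (span 0.3) on exon length. Same-numbered libraries deviated alike from their group means (r = 0.511, 0.248 and 0.383, each above 0.1), so blocked values stand where they change a call. Other pairs of GC and control libraries had r from -0.378 to 0.0233. Deviations from a group mean are tied to one another, and so are these r. The threshold of 0.1 and the part of exon length in these r were not tested. The labels do not say that numbers mark shared cultures. Members, lists and tests were chosen with earlier results of these data known. Named pathway genes are those past the threshold in each list or, in lists without a call, the 2 of highest mean FPKM; another is said to be singled out by its values. A gene that counts in its list is not reported here and is left out of the plot by role. Intervals and floors cover counting error only.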

Additional observations from a re-analysis of the deposited data

How the results depend on the processing

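All 4 tested members and Rbpj had negative fold changes in each of the 13 alternatives run. The number of tested members called was 0 with all 6 libraries, with 3 at an unadjusted p under 0.05, and also 0 by limma-voom; it was 2 with the replicate block, 1 with the length trend removed, 2 with both, and 0 to 3 when leaving out 1 library. Among the other pathway genes 1 was called with all libraries, 0 without a filter, 5 with the replicate block, 2 with the length trend removed, 6 with both, and 0 to 9 when leaving out 1 library. Over all rows 227 were called, against 17 without a filter, 1051 with the replicate block, 360 by limma-voom, 427 with the length trend removed, 1497 with both, and 16 to 1227 when leaving out 1 library, the highest without GC replicate 2. Of the Notch genes described by name, Hes1, Jag1, Rbpj, Epn1, Dlk2 and Poglut1 were called with the replicate block, which changed the call of no other named Notch gene. The adjusted p over the alternatives ranged from 0.0250 to 0.704 for Notch1, 0.0140 to 0.431 for Notch2, 0.0330 to 0.409 for Jag1 and 0.00505 to 0.358 for Hes1. With 3 libraries a group, Notch3, Jag2 and Dll1 are limited by depth, at no more than 30 reads in any library.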
